A study of Rattus norvegicus with 31 samples.

Results

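Class II antigen presentation in the rat is represented here by 8 genes: Cd74, RT1-Da, RT1-Db1, RT1-Ba, RT1-Bb, RT1-DMa, RT1-DMb and Ciita. They are 8 of 11387 named genes kept on the array, and 14 array features (probe sets) carry their names in the platform annotation. The genes were selected on values of these arrays: RT1-Ba, RT1-Db1, RT1-Da and Cd74 were chosen by their higher values with hormone ablation than with sham treatment, while the macrophage scavenger receptor Cd163 was lower. The other 4 genes were added from the same pathway. For each gene the probe set with the highest mean over the 31 arrays stands for it. Values of the ablation against sham comparison are therefore a description, given with no test.

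Class II molecules are pairs of an alpha and a beta chain that show peptides from endosomes to CD4 T cells. Dendritic cells, B cells and many macrophages carry them, and the resident macrophages of the testis hold class II-positive and Cd163-positive populations. The invariant chain Cd74 guides newly made pairs to endosomes, the DM pair exchanges its remnant for a peptide, and the transactivator Ciita switches the genes on.

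Total RNA of testes from LBNF1 rats was measured on Affymetrix rat genome arrays. All rats were 25 to 27 weeks old, and the lower abdomen of all of them had been irradiated with 6 Gy. In 6 arrays the rats had received a GnRH antagonist, an androgen receptor antagonist and estradiol, a group whose label also names FSH supplementation (called ablation plus estradiol here). In 11 arrays they had received the GnRH antagonist together with flutamide, which blocks the androgen receptor (hormone ablation), and in 14 arrays sham treatment. Every group, sham included, thus carries the irradiation. The labels of 10 sham arrays describe the testes as control and those of 4 as irradiated, while their treatment labels are the same. The ablation plus estradiol arrays are the newer deposit, so group and deposit cannot be told apart in any comparison that includes them.

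The values are MAS5 signals on a log scale, read here as log2, and a level is comparable between arrays but not between probe sets. Array medians ranged from -1.44 to -1.24. In 4 arrays, sham 6, sham 7, ablation 4 and ablation 9, the late spermatid gene Prm1 lay at 2.32 to 5.78, above the limit of 2 used here to mark them. The first principal component put sham 1, sham 13, ablation 2 and ablation 9 at its ends. In whole testis RNA, fewer cells of a type and less RNA per cell cannot be told apart.

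Of the 8 genes, 6 had a promoter window in the RefSeq table of build GRCr8, namely Cd74, RT1-Da, RT1-Db1, RT1-Ba, RT1-Bb and RT1-DMa. The 6 RT1 genes lie together on chr20:4515393-4712335, a stretch of 197 kb, Cd74 lies on chromosome 18 and Ciita on chromosome 10. The windows run from 250 bases before to 50 bases after the start that the table uses for a gene. That start equals the annotated start of the gene in RT1-Ba, RT1-Bb and RT1-DMa, and lies 135 bases inside it in Cd74, 22 in RT1-Da and 20 in RT1-Db1. Stretches of 80 bases are shown because they hold the letters of the Y box core, GATTGG, or of the X box core, CCTNGNNAC, short elements named for class II promoters. Capitals mark a match on the strand of the gene. The stretches are chr18:56526966-56527045 (plus strand) for Cd74, chr20:4515305-4515384 (plus) for RT1-Da, chr20:4560224-4560303 (minus) for RT1-Db1, chr20:4576953-4577032 (plus) for RT1-Ba, chr20:4604161-4604240 (minus) for RT1-Bb and chr20:4712381-4712460 (minus) for RT1-DMa, all in GRCr8.
Cd74: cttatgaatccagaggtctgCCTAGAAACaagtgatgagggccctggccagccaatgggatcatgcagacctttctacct
RT1-Da: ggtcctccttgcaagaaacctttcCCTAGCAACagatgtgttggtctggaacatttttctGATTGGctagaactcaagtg
RT1-Db1: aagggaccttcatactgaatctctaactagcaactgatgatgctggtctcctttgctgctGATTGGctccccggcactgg
RT1-Ba: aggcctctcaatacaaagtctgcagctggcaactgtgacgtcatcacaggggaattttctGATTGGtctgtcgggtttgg
RT1-Bb: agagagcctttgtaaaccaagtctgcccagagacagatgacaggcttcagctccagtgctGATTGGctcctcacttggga
RT1-DMa: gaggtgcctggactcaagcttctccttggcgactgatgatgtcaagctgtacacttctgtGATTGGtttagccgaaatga

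The Y box core was found in 5 of the 6 windows searched, on either strand, against 14.8% of 33469 promoter windows of the same length. On the gene's own strand it began 44 bases before the annotated start in RT1-Ba, 62 in RT1-Bb and 65 in RT1-DMa. In RT1-Da it began 28 bases before the annotated start, or 50 before the table's, and in RT1-Db1 61 or 81. The Cd74 window had no such match. The X box core was found in 3 of the 6 windows (Cd74, RT1-Da and RT1-Bb), against 16.1% of all windows, and in RT1-Bb it lay after the start, outside the stretch shown. An X core followed by a Y core, with 30 to 40 bases from one start to the other, was found in RT1-Da and in 0.0807% of all windows. A match describes these letters only. The rats are hybrids of inbred strains, and their class II genes can differ in sequence from the reference genome.

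The invariant chain Cd74 and the 4 peptide-binding chains had higher medians in both treated groups than with sham treatment. For RT1-Ba with ablation plus estradiol, however, the median was about that of sham (2.02 against 2.01). Cd74 had log2 signals with a lowest value of 2.28, a median of 2.60 and a highest value of 3.12 in ablation plus estradiol arrays. In ablation arrays they were 2.48, 2.75 and 3.21, and in sham arrays 1.72, 2.16 and 2.65. All 6 ablation plus estradiol arrays and all 11 ablation arrays lay above the sham median, although the ranges overlapped. Relative to sham arrays, Cd74 was 0.51 ± 0.12 higher (log2 difference ± SE, 1.43-fold) with ablation plus estradiol and 0.59 ± 0.10 higher (1.51-fold) with ablation.

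RT1-Da, the alpha chain of the D molecule, reached 2.26, 2.55 and 2.83 (lowest, median and highest) in ablation plus estradiol arrays. It reached 1.89, 2.35 and 3.19 in ablation arrays and 1.60, 1.97 and 2.32 in sham arrays. Of the ablation plus estradiol arrays 4 of 6 lay above every sham array, as did 7 of 11 ablation arrays, and the spread was widest with ablation (SD 0.33, n = 11). The log2 differences from sham were 0.56 ± 0.13 with ablation plus estradiol and 0.43 ± 0.10 with ablation.

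RT1-Db1, the beta chain of the D molecule, had 0.81, 1.04 and 1.31 in ablation plus estradiol arrays, 0.75, 1.12 and 1.62 in ablation arrays, and 0.24, 0.71 and 1.23 in sham arrays. Both treated groups lay above the sham median in every array, with overlapping ranges. The log2 differences from sham were 0.33 ± 0.13 and 0.40 ± 0.11 for ablation plus estradiol and for ablation. A further RT1-Db1 probe set gave 0.45 and 0.52 in the same order.

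RT1-Ba, the alpha chain of the B molecule, had 1.90, 2.02 and 2.43 in ablation plus estradiol arrays, 1.86, 2.22 and 2.60 in ablation arrays, and 1.62, 2.01 and 2.35 in sham arrays. The ablation plus estradiol arrays were spread around the sham median, with 3 of 6 above it, while 9 of 11 ablation arrays lay above it. The log2 differences from sham were 0.12 ± 0.11 with ablation plus estradiol and 0.29 ± 0.09 with ablation. RT1-Ba has 3 further probe sets, with 0.17, 0.18 and 0.62 for ablation plus estradiol against sham and 0.21, 0.14 and 0.36 for ablation against sham. The last of these was above the filter level in 8 of 31 arrays.

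RT1-Bb, the beta chain of the B molecule, was not among the genes selected for a higher value. It had 1.23, 1.36 and 1.75 in ablation plus estradiol arrays, 0.93, 1.27 and 1.85 in ablation arrays, and 0.47, 0.99 and 1.34 in sham arrays. All 6 ablation plus estradiol arrays lay above the sham median and 3 of them above every sham array. The difference was 0.38 ± 0.12 (1.31-fold, adjusted p = 0.0261, limma) for ablation plus estradiol against sham. The sham arrays of this test also entered the selection, so it is not independent of it. The call was lost without ablation plus estradiol array 1, 3 or 4 (adjusted p = 0.0691, 0.0544 and 0.0995), and without the 4 arrays of high Prm1 (0.0534). It was also lost against the 4 sham arrays described as irradiated (0.217), although the difference was 0.34 there. A further RT1-Bb probe set was above the filter level in 1 of 31 arrays and was not tested.

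**Figure D1:**
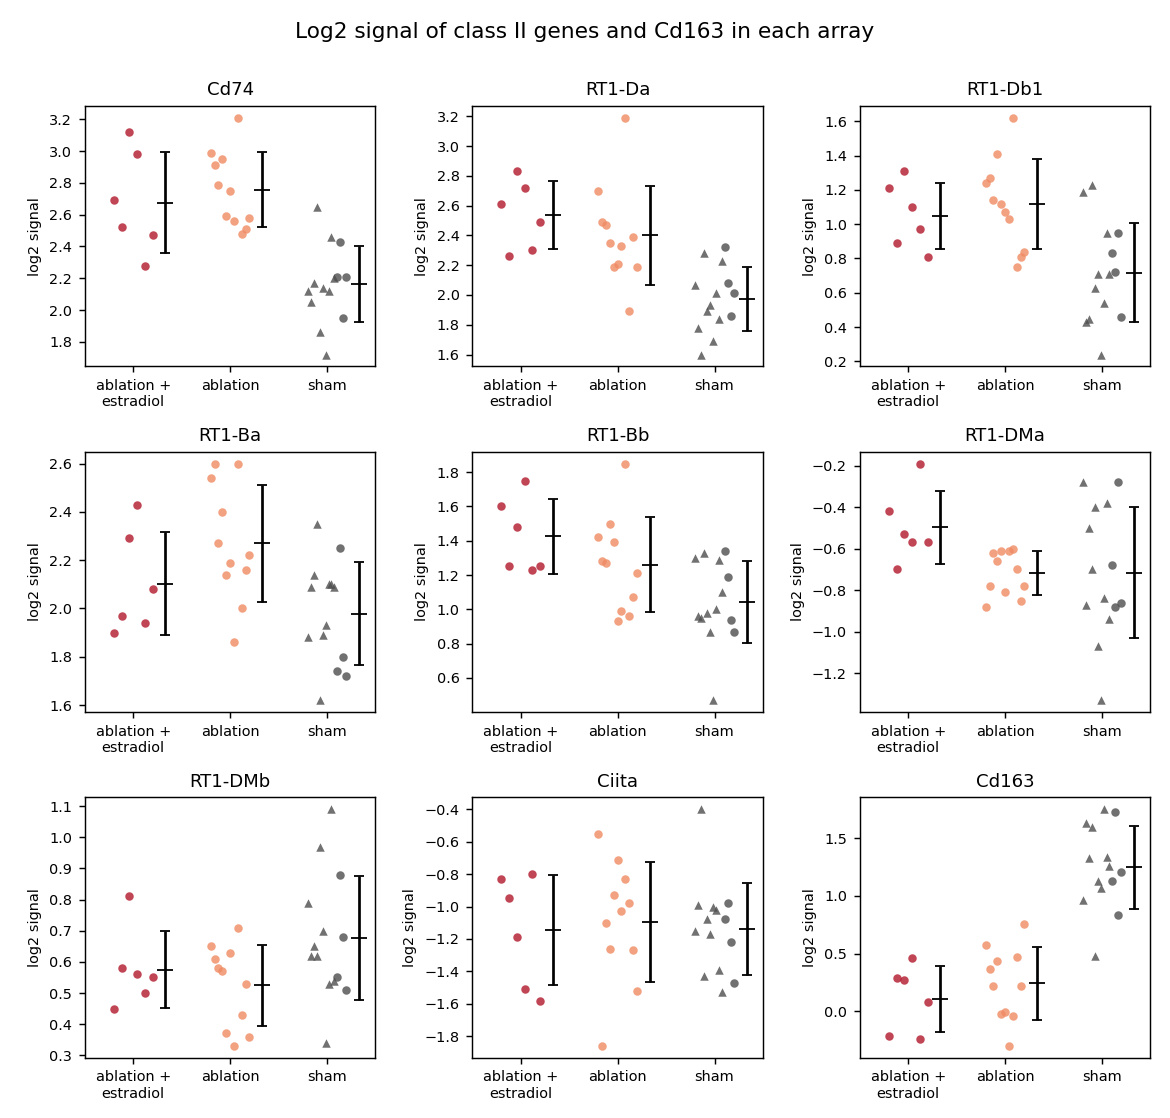
Log2 signal of the main probe set of each gene, 1 point per array, for ablation plus estradiol (6 arrays), ablation (11) and sham (14); triangles are sham arrays described as control, and bars show the mean and SD. Cd74 and RT1-Da sit lower with sham treatment than in both treated groups, while Cd163 is higher there and all 6 ablation plus estradiol arrays lie below every sham array.

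The DM chains and Ciita were not called in ablation plus estradiol against sham, where only RT1-Bb was called among the 4 genes tested. RT1-DMa, the alpha chain of the peptide exchange factor, had -0.70, -0.55 and -0.19 in ablation plus estradiol arrays, -0.88, -0.70 and -0.60 in ablation arrays, and -1.33, -0.77 and -0.28 in sham arrays. Of the ablation plus estradiol arrays 5 of 6 lay above every ablation array, whose spread was narrow (SD 0.11, n = 11). The sham range, however, held all ablation arrays and all but 1 of the ablation plus estradiol arrays. Its difference from sham with ablation plus estradiol was 0.22 ± 0.12 (95% interval -0.03 to 0.47, adjusted p = 0.261).

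RT1-DMb, the beta chain of that factor, had 0.45, 0.56 and 0.81 in ablation plus estradiol arrays, 0.33, 0.57 and 0.71 in ablation arrays, and 0.34, 0.64 and 1.09 in sham arrays. Of the treated arrays, 1 of 6 with ablation plus estradiol and 2 of 11 with ablation lay above the sham median. The differences from sham were -0.10 ± 0.09 (95% interval -0.29 to 0.09, adjusted p = 0.541) with ablation plus estradiol and -0.15 ± 0.08, a value only, with ablation.

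Ciita had -1.58, -1.07 and -0.80 in ablation plus estradiol arrays, -1.86, -1.03 and -0.55 in ablation arrays, and -1.53, -1.12 and -0.40 in sham arrays. The ranges of the 3 groups lay over each other. Its difference from sham was -0.01 ± 0.16 (95% interval -0.33 to 0.32, adjusted p = 0.988) with ablation plus estradiol, so that a change of up to 0.32 in size is within the interval. The sign of this small value turned under array centring (0.03) and quantile normalization (0.02). The further Ciita probe set was above the filter level in all 6 ablation plus estradiol arrays but in 4 of 11 ablation and 7 of 14 sham arrays. With ablation plus estradiol it was 0.29 higher than with sham and 0.2 higher than with ablation. With ablation it was 0.1 higher than with sham. These are values only, near the filter level, and they differ from those of the main probe set.

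Between ablation plus estradiol and ablation, none of the 4 class II genes tested passed the threshold. These 4 are the members not called in ablation against sham, a split made on the same ablation arrays. Of them, limma called 0 higher and 0 lower, where 0.729% of all genes were called higher and 2.73% lower (adjusted p under 0.05). At an unadjusted p under 0.05 the count was also 0 of 4. RT1-DMa differed by 0.22 ± 0.13 (95% interval -0.04 to 0.48, adjusted p = 0.395), RT1-Bb by 0.17 ± 0.13 (-0.09 to 0.42, adjusted p = 0.563), RT1-DMb by 0.05 ± 0.09 (-0.14 to 0.24, adjusted p = 0.847) and Ciita by -0.05 ± 0.17 (-0.39 to 0.29, adjusted p = 0.926). The ablation arrays entered the selection of the other 4 genes, whose differences are therefore values only. These were -0.08 ± 0.13 for Cd74, 0.13 ± 0.13 for RT1-Da, -0.07 ± 0.13 for RT1-Db1 and -0.17 ± 0.12 for RT1-Ba.

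Among the 4 genes that were not selected for a higher value, 1 was called higher (RT1-Bb) and 0 lower in ablation plus estradiol against sham, where 5.28% of all genes were called higher and 11.9% lower. The sham arrays are shared with the comparison that chose the other 4, which are given without a test. RT1-Bb followed those genes across arrays with the group means removed (r = 0.76 with Cd74 and 0.8 with RT1-Db1). Its test is therefore not independent of the selection. In ablation against sham, 4 of the 8 genes were higher and 0 lower by the selection itself, where 9.23% of all genes were called higher and 12.8% lower. At the threshold of that selection, RT1-Ba lay inside with 0.29 ± 0.09 and RT1-Bb outside with 0.22 ± 0.10. The members' median log2 difference was 0.27 for ablation plus estradiol against sham and 0.26 for ablation against sham, against -0.03 and 0.00 over all genes. The selection on these sham arrays raises both medians, so nothing is read from that distance.

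**Figure D2:**
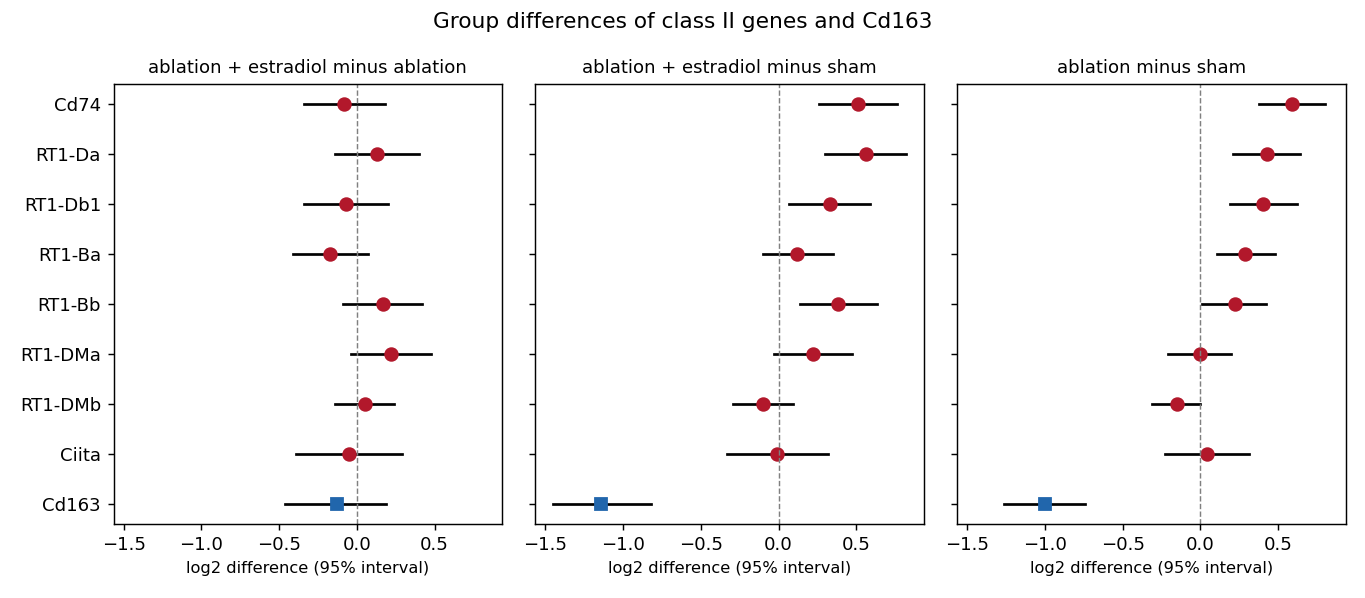
Log2 difference (x axis) with its 95% interval for each class II gene (circles) and Cd163 (squares) in ablation plus estradiol minus ablation, ablation plus estradiol minus sham, and ablation minus sham. Cd74 lies at -0.08, 0.51 and 0.59, and Cd163 at -0.13, -1.14 and -1.0.

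Cd163, the haemoglobin scavenger receptor of resident macrophages, ran the other way. It had -0.24, 0.18 and 0.46 (lowest, median and highest) in ablation plus estradiol arrays, -0.30, 0.22 and 0.76 in ablation arrays, and 0.48, 1.23 and 1.75 in sham arrays. Every ablation plus estradiol array and 9 of 11 ablation arrays lay below every sham array. Its log2 differences from sham were -1.14 ± 0.15 (2.20-fold lower) with ablation plus estradiol and -1.0 ± 0.13 (2.00-fold lower) with ablation. Without the 4 arrays of high Prm1 these were -1.16 and -1.07, and those of Cd74 0.47 and 0.56.

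Within each array, the log2 signal of Cd74 minus that of Cd163 averaged 2.57 ± 0.26 (SD, n = 6) with ablation plus estradiol, 2.51 ± 0.39 (n = 11) with ablation and 0.92 ± 0.29 (n = 14) with sham treatment. As the 2 probe sets differ in brightness, only its change between groups has a meaning. The lowest treated array, at 1.82, lay above the highest sham array, at 1.39. The difference from sham was 1.65 with ablation plus estradiol and 1.59 with ablation, and between ablation plus estradiol and ablation 0.06, all of them descriptions of genes selected on these arrays.

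**Figure D3:**
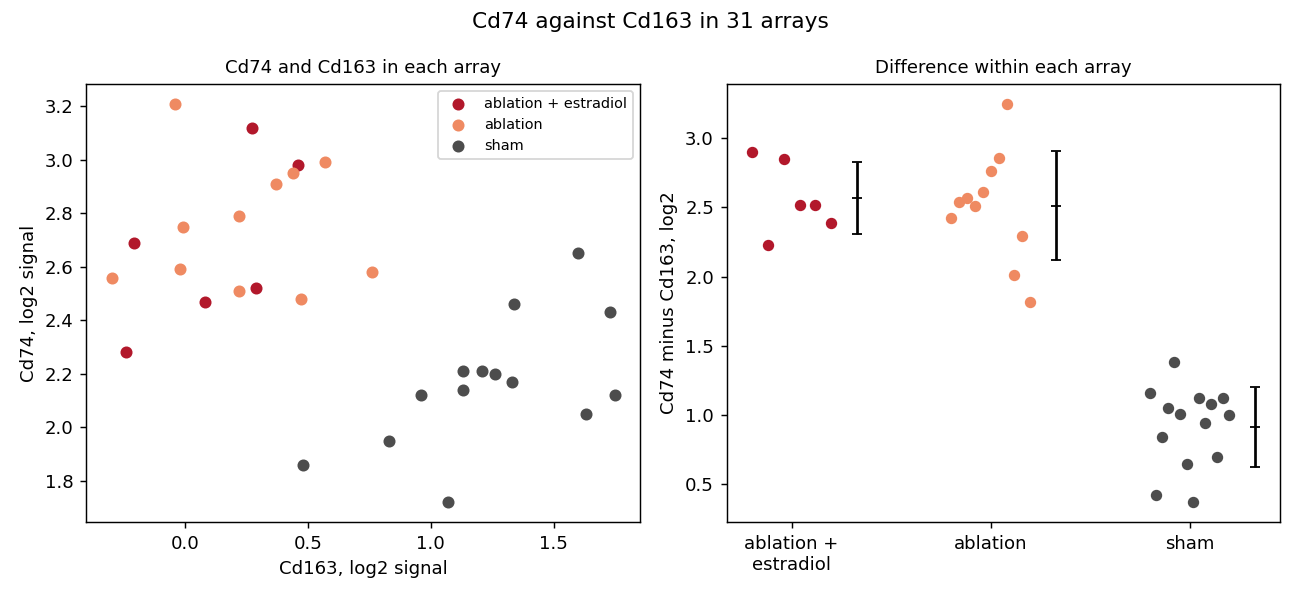
Left, log2 signal of Cd74 (y axis) against that of Cd163 (x axis), 1 point per array; right, Cd74 minus Cd163 in each array with the mean and SD by group. The sham arrays lie apart at higher Cd163 and lower Cd74, and their differences, 0.37 to 1.39, do not reach those of the treated arrays, 1.82 to 3.25.

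Across arrays of a single group, Cd74 varied together with the peptide-binding chains. Within the ablation group (n = 11), Pearson's r with Cd74 was 0.94 for RT1-Db1 (Spearman's rho 0.95), 0.88 for RT1-Ba (0.89), 0.84 for RT1-Da (0.76), 0.82 for RT1-DMb (0.78) and 0.81 for RT1-Bb (0.80). Their permutation p-values adjusted over the 24 relations computed were 0.00072, 0.0042, 0.00552, 0.0102 and 0.0102 for r, and 0.0012, 0.00696, 0.0424, 0.0367 and 0.0367 for rho. Without the 2 arrays farthest from the Cd74 median, r was 0.87 for RT1-Db1 and 0.83 for RT1-Ba (both adjusted permutation p = 0.0381). It was 0.65 for RT1-Da, 0.76 for RT1-DMb and 0.59 for RT1-Bb, which no longer passed. These 3 calls depend on including the 2 arrays, whose removal also leaves 9 arrays and a narrower range of Cd74. The r of RT1-Db1 and RT1-Ba rests on their main probe sets. With the group means removed, the further RT1-Db1 probe set had r = 0.53 with the main one. The further RT1-Ba probe sets had 0.82, 0.28 and 0.05 with theirs. Whether these further probe sets vary with Cd74 was not tested.

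No relation of RT1-DMa or Ciita with Cd74 passed in any group. In the ablation group r was 0.09 for RT1-DMa (adjusted permutation p = 0.83) and 0.16 for Ciita (0.698). Cd163 had r = 0.01 with Cd74 there (adjusted permutation p = 0.968).

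Within the sham group (n = 14), r with Cd74 was 0.75 for RT1-Bb (adjusted permutation p = 0.0102) and 0.64 for RT1-Ba (0.0473). Neither passed by rank, with rho of 0.60 (adjusted permutation p = 0.105) and 0.49 (0.155), nor without the 2 farthest arrays, with r of 0.51 and 0.59. Cd163 had r = 0.59 with Cd74 in the sham group (adjusted permutation p = 0.0669). Cd163 passed after array centring (r = 0.69, adjusted permutation p = 0.0193) and after quantile normalization (r = 0.72, adjusted permutation p = 0.0126). It did not pass without the 2 farthest arrays (adjusted permutation p = 0.21) or without the arrays of high Prm1 (0.0883). The difference in r between the groups was not tested. Within the ablation plus estradiol group (n = 6), r was 0.91 for RT1-Da (adjusted permutation p = 0.0542) and none of its 8 relations passed.

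**Figure D4:**
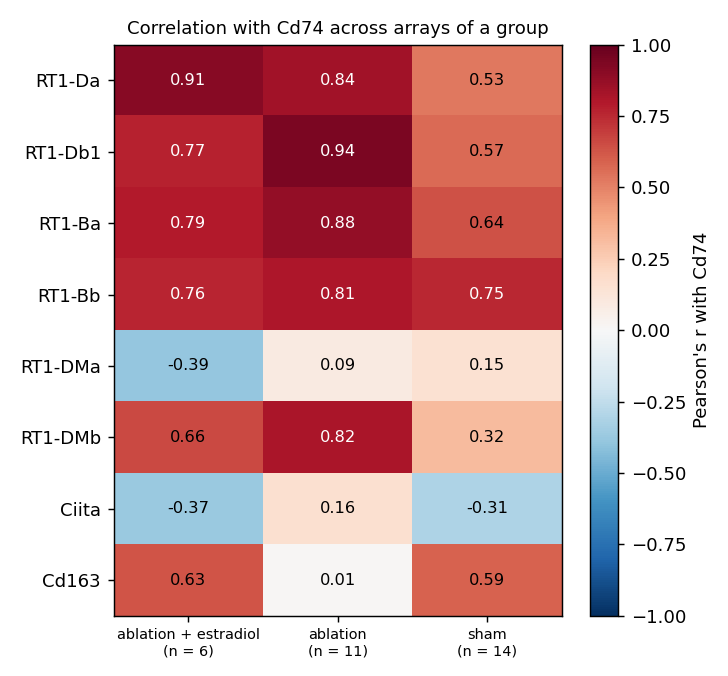
Pearson's r with Cd74 across the arrays of each group for the other class II genes and Cd163, with the value in each cell and red for positive r. The 4 peptide-binding chains have r between 0.53 and 0.94 in all groups, while RT1-DMa and Ciita lie between -0.39 and 0.16.

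With the group means removed, the genes most like Cd74 over all 31 arrays were RT1-Bb (r = 0.76, rank 1 of 11386 genes) and RT1-Ba (0.75, rank 2). RT1-Da (0.71) and RT1-Db1 (0.70) held ranks 4 and 5, RT1-DMb (0.50) rank 47 and Cd163 (0.41) rank 206. RT1-DMa (0.03) and Ciita (-0.15) held ranks 4817 and 8926. These are descriptions across arrays that share processing and cell makeup, with only the main probe set of each gene. Over the 28 pairs of the 8 genes, r ranged from -0.19 to 0.80 with a median of 0.41, and 9 pairs were above 0.5.

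Provisional symbols that begin with LOC or RGD were left out of the next list. The 10 other genes with the highest r were then Ptgs1 (0.73), RT1-S3, Ctss and Pepd (0.66 each), C5ar1 (0.62), Ifi27l2b and Decr2 (0.60 each), Plin4 (0.58), and C1qa and Adgre1 (0.57 each). RT1-S3 is a class I gene, Ctss the endosomal protease that trims the invariant chain, C5ar1 the receptor of complement C5a, and Adgre1 a macrophage surface protein. Ctss was like Cd74 across arrays but not between groups: it was 0.51 lower with ablation plus estradiol (adjusted p = 0.00155, limma) and 0.60 lower with ablation (adjusted p = 1.16e-05) than with sham treatment. C1qa, a chain of complement C1q made by macrophages, was lower by 0.68 (adjusted p = 0.00207) and 0.81 (adjusted p = 1.31e-05) in the same comparisons. Adgre1 had differences of 0.37 (adjusted p = 0.212) and 0.19 (adjusted p = 0.437), neither of them called.

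Genes of endosomal processing, which cuts and reduces antigens for class II molecules, were in part lower in both treated groups. Among 13 endosomal processing genes, 6 passed the test as lower and 0 as higher in ablation plus estradiol against sham, and likewise 6 and 0 in ablation against sham, with median log2 differences of -0.34 and -0.30. Over all genes the shares called lower were 11.9% and 12.8%. The cathepsin Ctsh was 1.69 lower (adjusted p = 6.31e-15) with ablation plus estradiol and 1.65 lower (3.77e-17) with ablation. Ifi30, the reductase that opens disulphide bonds of antigens, was lower by 0.92 (2.36e-09) and 0.78 (1.02e-09), and the protease Ctsd by 0.76 (0.00895) and 0.91 (0.00013). The mean of the 13 genes ranged over 1.60 to 1.85 in ablation plus estradiol arrays, 1.59 to 1.96 in ablation arrays and 1.90 to 2.34 in sham arrays.

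Genes of class I presentation, which shows peptides from the cytosol to CD8 T cells, were lower too. Of 15 tested, 7 were lower and 0 higher with ablation plus estradiol against sham, and 9 lower and 0 higher with ablation against sham (medians -0.31 and -0.42). Over all genes the shares were 11.9% lower and 5.28% higher in the first comparison, and 12.8% and 9.23% in the second. The immunoproteasome subunits Psmb8, Psmb9 and Psmb10 were lower by 1.02, 0.77 and 0.68 with ablation plus estradiol and by 0.76, 0.70 and 0.77 with ablation. B2m, the light chain of class I molecules, was lower by 0.66 (adjusted p = 0.00516) and 0.51 (adjusted p = 0.00722). In ablation plus estradiol against ablation, limma called 0 of these 15 genes and 0 of the 13 endosomal genes (1 and 2 at an unadjusted p under 0.05).

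Transcription factors of class II promoters did not move together. Of 9 tested, 0 were higher and 1 lower with ablation plus estradiol against sham, and 1 was higher and 1 lower with ablation against sham. Over all genes 5.28% were higher and 11.9% lower in the first comparison, and 9.23% and 12.8% in the second. Nothing about the list is read from these counts. Rfx5, which binds the X box, was lower by 0.40 (adjusted p = 0.00235) with ablation plus estradiol and by 0.35 (0.000874) with ablation. Creb1 was 0.40 higher with ablation (adjusted p = 0.0448), a call that was lost with no filter, with no variance trend, with the replicate block and with the 4 sham arrays described as irradiated. The Y box subunits Nfya, Nfyb and Nfyc had values of 0.17, 0.15 and 0.20 with ablation against sham and were not called.

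Of 24 interferon response genes, 5 were lower and 0 higher with ablation plus estradiol against sham, and 5 lower and 1 higher (Gbp4, by 0.38, adjusted p = 0.032) with ablation against sham. The shares over all genes were 11.9% lower and 5.28% higher in the first comparison, and 12.8% and 9.23% in the second. The medians were -0.10 in both comparisons. Mx1, an antiviral GTPase, was lower by 1.07 (adjusted p = 3.8e-07) and 0.62 (0.000129), and Irf7 by 0.71 (0.000143) and 0.39 (0.00889). Leaving out the 4 arrays that the first component put at its ends gave 3 rather than 5 lower genes with ablation. The 4 sham arrays described as irradiated gave 2, and the replicate block gave 2 rather than 5 with ablation plus estradiol. The count of 1 higher gene with ablation became 0 without the 4 arrays of the first component's ends. It ranged from 0 to 3 over the alternatives.

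Among markers of cells that carry class II molecules, every call against sham was lower in the macrophage and dendritic cell lists. In the B cell list 1 gene was called, as higher. Of 21 macrophage genes besides Cd163, 9 were lower and 0 higher with ablation plus estradiol against sham, and 13 lower and 0 higher with ablation against sham (medians -0.27 and -0.32). The shares over all genes were 11.9% lower and 5.28% higher in the first comparison, and 12.8% and 9.23% in the second. C1qc was lower by 0.85 and 0.86, and Mrc1, the mannose receptor, by 0.87 and 0.69. Csf1r, the receptor that macrophages need for survival, was lower by 0.33 with ablation (adjusted p = 0.0279, limma). Not every gene of the list had a lower value. Adgre1 lay above sham by 0.37 (adjusted p = 0.212) and 0.19 (adjusted p = 0.437), neither of them called. The mean of the 22 macrophage genes ranged from -0.08 to 0.21 in ablation plus estradiol arrays, -0.18 to 0.34 in ablation arrays and 0.04 to 0.73 in sham arrays. The part of these levels in the class II values was not tested.

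Of 6 dendritic cell genes tested, 1 was lower with ablation plus estradiol (0 to 1 over the alternatives) and 2 with ablation against sham, and none was higher. Over all genes 11.9% and 12.8% were lower in these comparisons. With 6 genes tested, nothing about the list is read from the counts. The lectin Clec10a, which some macrophages carry as well, was 0.61 higher with ablation plus estradiol than with ablation (adjusted p = 0.0166) and 0.50 lower with ablation than with sham (0.0042). The alternatives gave 0 to 1 higher genes in the first of these comparisons, and in the second 1 to 2 lower. Itgax, the integrin CD11c, was above the filter level in 6 of 31 arrays, Flt3 did not pass the filter, and Zbtb46 and Xcr1 are not named on the array.

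Of 5 B cell genes tested, Fcrla, an intracellular Fc receptor-like protein, was the 1 called. It was 0.55 higher with ablation plus estradiol than with ablation (adjusted p = 0.00428), and higher than with sham by 1.23 (8.5e-10) with ablation plus estradiol and by 0.67 (3.86e-06) with ablation. The B cell antigen Ms4a1 was above the filter level in 17 of 31 arrays and had -0.14 and 0.08 against sham, and Cd79b did not pass the filter. Of 14 T and NK cell genes, 1 was lower and 0 higher with ablation plus estradiol against sham, and 1 was lower (Cd4, by 0.60, adjusted p = 0.00284) and 1 higher with ablation against sham. The higher one, the chemokine Xcl1 (1.57, adjusted p = 0.00754), was above the filter level in 7 of 31 arrays. Each of these T and NK cell counts of 1 ranged from 0 to 1 over the alternatives. Over all genes 11.9% were lower and 5.28% higher in ablation plus estradiol against sham, and 12.8% and 9.23% in ablation against sham. The share higher in ablation plus estradiol against ablation was 0.729%. Nothing about the B cell or the T and NK cell list is read from counts of 1. The part of these cells in the class II values was not tested.

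**Figure D5:**
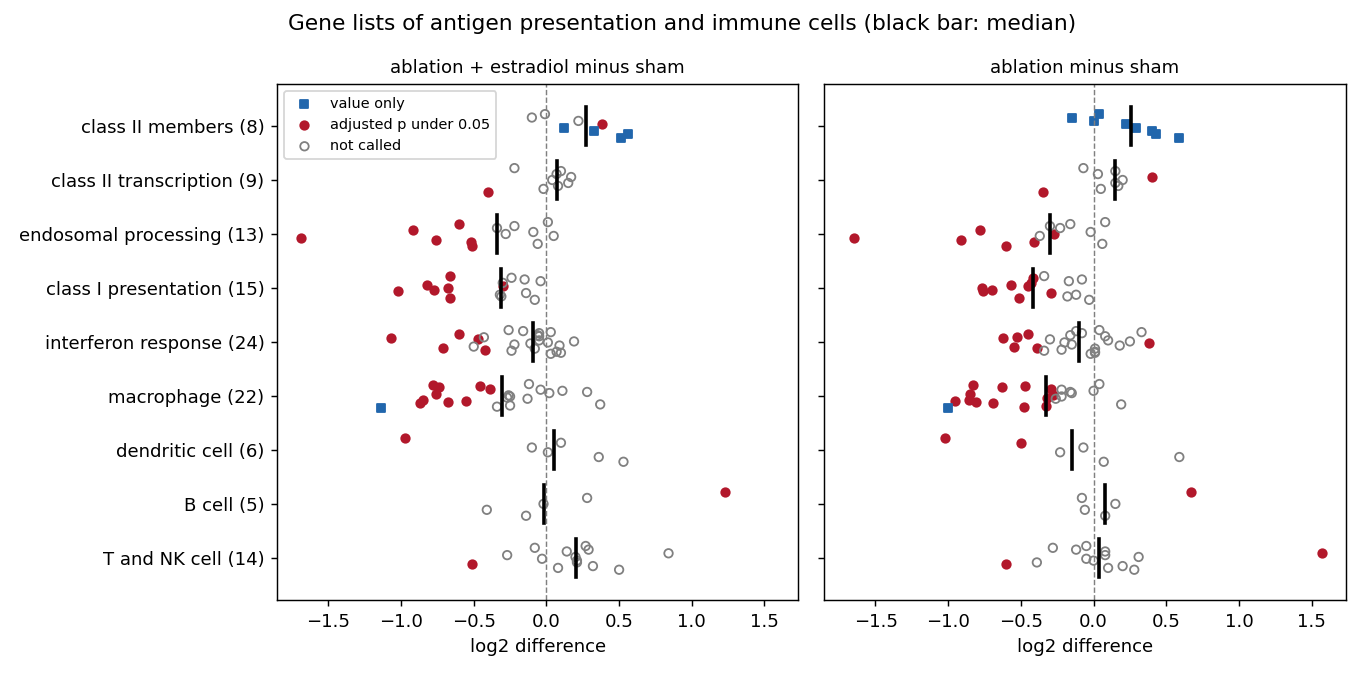
Log2 difference of each tested gene (x axis) by gene list, with the number tested in brackets, for ablation plus estradiol minus sham and ablation minus sham; black bars are medians, red points were called, and squares are genes given as values only. The medians of the endosomal, class I and macrophage lists, Cd163 included, lie between -0.42 and -0.30; that of the class II genes is raised by their selection.

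The 4 sham arrays described as irradiated and the 10 described as control had close mean class II levels. Cd74 averaged 2.20 ± 0.20 in arrays described as irradiated and 2.15 ± 0.26 in those described as control (SD, n = 4 and 10). RT1-Da averaged 2.07 ± 0.19 and 1.93 ± 0.22, and RT1-Bb 1.08 ± 0.22 and 1.03 ± 0.26. RT1-Ba averaged 1.87 ± 0.25 and 2.02 ± 0.20, but its medians lay farther apart, at 1.77 and 2.09. Cd163 averaged 1.22 ± 0.37 and 1.25 ± 0.37. These differences of means were smaller than the SD within either set of arrays.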

How the data were processed

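The data were one table of MAS5 signals of 31 rat testis arrays, which the authors deposited on a log scale; MAS5 is named in the submitters' processing notes. The log base and scaling target are not given in the sources used here, and the deposited values were read as log2. The newer arrays carry 2 decimals. Of 31099 probe sets, 57 controls were left out, and 21269 of the others exceeded the 40th percentile of their own array (levels of -1.93 to -1.75) in at least 6 arrays. Names came from the platform annotation, updated by Entrez number for 20758 probe sets: 20826 have 1 symbol, 436 several and 9780 none. The main probe sets of RT1-Db1 and RT1-Ba, whose names end in _s_at and _x_at, may bind similar transcripts.

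Groups came from the treatment labels. All 31 arrays were fitted with limma 3.58.1 (R 4.3.3; 3 groups, no covariate, variance trend), with p-values adjusted over all probe sets that passed the filter (Benjamini-Hochberg) and called under 0.05. The labels call the arrays biological replicates. Shares of genes use 1 probe set for each of 11387 genes. Correlations used permutation (100000 resamples, exact for 6 arrays; scipy 1.17.1). The fit was checked on simulated data. The number of arrays limits the precision.

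The members, the 15 gene lists and the tests were chosen with earlier results of these data known. Tests of each member, and of Cd74 minus Cd163, were planned for the comparisons with ablation plus estradiol; for Cd163 and the 4 members selected on the ablation and sham arrays only values are given. Named genes are all members, Cd163, up to 4 called genes of a list with the smallest adjusted p in a comparison, and the 10 other genes most like Cd74. Symbols beginning with LOC or RGD were left out of these 10. Others (Csf1r, Nfya, Nfyb, Nfyc, Itgax, Flt3, Zbtb46, Xcr1, Ms4a1, Cd79b, B2m, Psmb10 and Prm1 where not so chosen) were added after their values were seen. Replicate numbers were not taken to pair the arrays, since not every same-numbered pair correlated above 0.1: correlations of same-numbered deviations were -0.182 to 0.059 (6 pairs, ablation plus estradiol and ablation, 0 above), -0.011 to 0.376 (6, ablation plus estradiol and sham, 3 above) and -0.086 to 0.047 (11, ablation and sham, 0 above). Alternatives were other filters, quantile normalization, array centring, only the compared groups, no variance trend, a replicate block, leaving out arrays, and the sham arrays by description. Leaving out the arrays of high Prm1 was added after seeing the data.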

Additional observations from a re-analysis of the deposited data

Results flagged for a closer look

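Within the 6 ablation plus estradiol arrays, array 3 stood apart in RT1-DMb, at 0.81, with a gap to the next array of 0.639 of the group's range, above the critical value of 0.625. The same check over 15 probe sets of the class II genes and Cd163 found 1 such array, and chance gives about 1 in 20 groups.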

How the results depend on the processing

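In ablation plus estradiol against ablation, 0 of the 4 members tested were called under every alternative run. Leaving out 1 array at a time moved Ciita between -0.12 and 0.04, Cd74 between -0.17 and 0.00, and Cd74 minus Cd163 between -0.01 and 0.13. In ablation plus estradiol against sham, there was 1 call (RT1-Bb) among the 4 genes not selected for a higher value. It went to 0 with the replicate block, with the 4 sham arrays described as irradiated alone and without the arrays of high Prm1. Leaving out 1 array at a time gave 0 to 1. Ciita there was 0.02 with quantile normalization, 0.03 with centring, 0.05 with the sham arrays described as irradiated, 0.00 without the arrays of high Prm1, and -0.07 to 0.08 leaving out 1 array. With the replicate block RT1-Bb was 0.35 (adjusted p = 0.0597), in the comparison where 3 of 6 same-numbered pairs correlated above 0.1, and the block gave 878, 2349 and 3185 called probe sets for ablation plus estradiol against ablation, ablation plus estradiol against sham and ablation against sham, against 1173, 3093 and 4128 without it. With the 4 sham arrays described as irradiated, 1702 and 2345 probe sets were called against sham, where fewer samples entered. Member values in ablation against sham moved by less than 1 SD of the sham arrays under every alternative run.

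Of the 24 relations with Cd74, 7 passed, and 2 did without the 2 arrays farthest from the Cd74 median. That setting gave r of -0.25 for RT1-Ba, -0.30 for RT1-DMb and 0.03 for Ciita with ablation plus estradiol, and for RT1-DMa -0.19 with ablation and -0.25 with sham. Quantile normalization gave 0.14 for Ciita with sham, and leaving out the arrays of high Prm1 gave -0.28 for RT1-DMa with sham. The causes were not tested. Another probe set for Cd74 or Cd163 could not be tried, since each has 1. Probe sets near the filter level are the least precise.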

Other observations

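Other lists of genes around antigen presentation and the testis gave the following counts (limma, adjusted p under 0.05). The shares over all genes were 11.9% lower and 5.28% higher in ablation plus estradiol against sham, and 12.8% and 9.23% in ablation against sham. They were 2.73% and 0.729% in ablation plus estradiol against ablation. The lists are short, so counts of 1 or 2 are not read as results about them. Of 5 costimulation genes, the adhesion molecule Icam1 was 1.14 lower with ablation plus estradiol than with sham (adjusted p = 0.0055), and Cd48, a surface partner of lymphocyte receptors, was 0.45 lower with ablation than with sham (adjusted p = 0.00228). Of 4 mast cell genes 1 (Kit) and of 9 endothelial genes 2 were lower with ablation than with sham, and none of either list was called in the other comparisons. The count for ablation against sham ranged from 0 to 1 (mast cell) and 0 to 3 (endothelial) over the alternatives; without the 4 arrays at either end of the first component it was 0 in both lists, and without the arrays of high Prm1 1 endothelial gene was lower. Of 4 class II neighbours and paralogs, 0 are named on the array.

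Of 8 Leydig cell genes, 5 were lower and 2 higher than with sham in both treated groups, and 3 were lower with ablation plus estradiol than with ablation. The 2 higher calls ranged from 0 to 2 over the alternatives in each comparison with sham: without the arrays of the first component's ends they were 1 with ablation plus estradiol and 0 with ablation, and without the arrays of high Prm1 1 was left with ablation. Insl3, a Leydig cell hormone, fell by 6.37 on the log2 scale with ablation plus estradiol and fell by 4.49 with ablation, both relative to sham. Of 5 Sertoli cell genes 3 were higher than with sham in both treated groups (2 to 4 over the alternatives with ablation plus estradiol and 1 to 4 with ablation). Of 5 spermatid genes, 1 (Prm1) was lower with ablation plus estradiol than with ablation (0 to 1 over the alternatives), and none was called against sham.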
